A study of Homo sapiens with 48 samples.

Results

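Core Mediator and RNA polymerase II were examined as sets of subunit transcripts in the human prostate carcinoma line 22Rv1, which grows without testicular androgen, and in lines made from it. The members were chosen by gene symbol: 26 subunits of core Mediator (MED1 to MED31, without the kinase module) and 12 subunits of RNA polymerase II (POLR2A to POLR2L). These are 38 of the 61815 genes in the count table and 38 of the 20009 genes that were tested, so no member was lost to the low-count filter. The 48 RNA sequencing libraries formed 16 groups of 3. Parental Rv1-WT and Rv1-Luc, a derivative transduced with a firefly luciferase lentivirus, received either ordinary fetal bovine serum (FBS) or serum stripped with charcoal to remove steroids (CSS). The CSS cultures had already been passaged in that serum before treatment. A further 4 derivatives were grown in FBS and share a CRISPR/Cas9 double knockout of CDK8 and CDK19. Of these, dKO-8 and dKO-19 re-express wild-type CDK8 or CDK19 from a lentivirus, and dKO-8M and dKO-19M express the kinase-inactive mutant. The dKO-8 and dKO-8M lines were made from the vector-carrying knockout line dKO-V. Each line and medium received 0.1% DMSO (vehicle) or 500 nM SNX631, a selective CDK8/19 inhibitor, for 72 hours.

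Mediator is the large complex that carries signals from enhancer-bound transcription factors to RNA polymerase II at promoters. Its head and middle modules contact the polymerase, MED14 is the backbone that joins the modules, and the tail receives most activators. A separable kinase module holds CDK8 or its paralog CDK19 with cyclin C, MED12 and MED13. MED1 is a well-known contact of nuclear receptors. RNA polymerase II has a catalytic centre formed by POLR2A and POLR2B, and POLR2E, POLR2F, POLR2H, POLR2K and POLR2L also belong to RNA polymerases I and III. The question here was whether loss of Mediator kinase activity, or androgen depletion, was accompanied by a change in the transcripts of the complexes with which the kinases work.

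Library totals ran from 13.2 M to 31.5 M counts, with the shallowest libraries in Rv1-WT (13.2 M to 18.2 M). The lowest count of any member in any library was 110 (MED31). Of the prostate luminal markers, FOXA1 stood at 508 to 1170 CPM (counts per M counts of a library, its total scaled by the trimmed mean of M values), and KLK3 reached 11.6 CPM at most. Among 12 markers of other cell types, CD3E, KRT5, KRT14 and COL1A2 never exceeded 6 counts, and COL1A1 stood at 2.54 to 10.8 CPM. The plasma cell genes IGKC, IGHG1 and JCHAIN, singled out after their values were seen, summed to 1.23 to 20.5 CPM in Rv1-Luc and to at most 0.109 CPM in the libraries of every other line. Of the targeted genes, CDK8 stood at 27.7 ± 1.42 CPM in dKO-19 and 26.8 ± 0.472 CPM in Rv1-WT (SD, n = 3, FBS, vehicle). CDK19 stood at 103 ± 2.05 CPM in dKO-8 and 149 ± 1.07 CPM in Rv1-WT. Counts per gene cannot tell an edited transcript from an introduced one. One library stood apart: replicate 1 of vehicle-treated dKO-19M differed from replicates 2 and 3 far more than these did from each other (chi-square of the counts divided by its degrees of freedom: 16 and 15.5 beside 1.42). Outside this group the largest such value was 8.82, for vehicle-treated Rv1-Luc in FBS (replicates 1 and 2). For the members named below, values that use this library are given with and without it. The labels call the 3 libraries of a group replicates without saying that they came from separate cultures. The paper states that its RNA sequencing had at least 3 biological replicates per condition, without saying how they were separated. The p-values rest on the spread within groups, estimated in 1 fit of all 48 libraries. They do not measure variation between independently made lines.

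Among the 38 transcripts, the level per kilobase of exon spanned from 53.6 CPM per kilobase for POLR2L, a small subunit shared by the polymerases, to 1.52 for MED17, a scaffold of the Mediator head. RNA polymerase II subunits took 10 of the 10 highest places, and MED4 (20.9 CPM per kilobase), a middle module subunit, was the highest Mediator transcript. This order depends on the length assigned to a gene: with the longest transcript annotated as coding in place of the merged exons, POLR2A came first (131 CPM per kilobase over 2083 bases, a short model) and MED26 last (3.62), while RNA polymerase II again held 10 of the 10 highest places. MED28, for example, has 10982 bases of annotated exon and MED17 has 16610. The within-group coefficient of variation of the members ran from 3.28% (POLR2B) to 9.06% (MED31). Between the lowest and highest group mean, the members differed by 1.24 times (MED21) to 2.31 times (MED31). The plot of levels per kilobase shows how narrow each range was next to the spread between subunits.

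**Figure D1:**
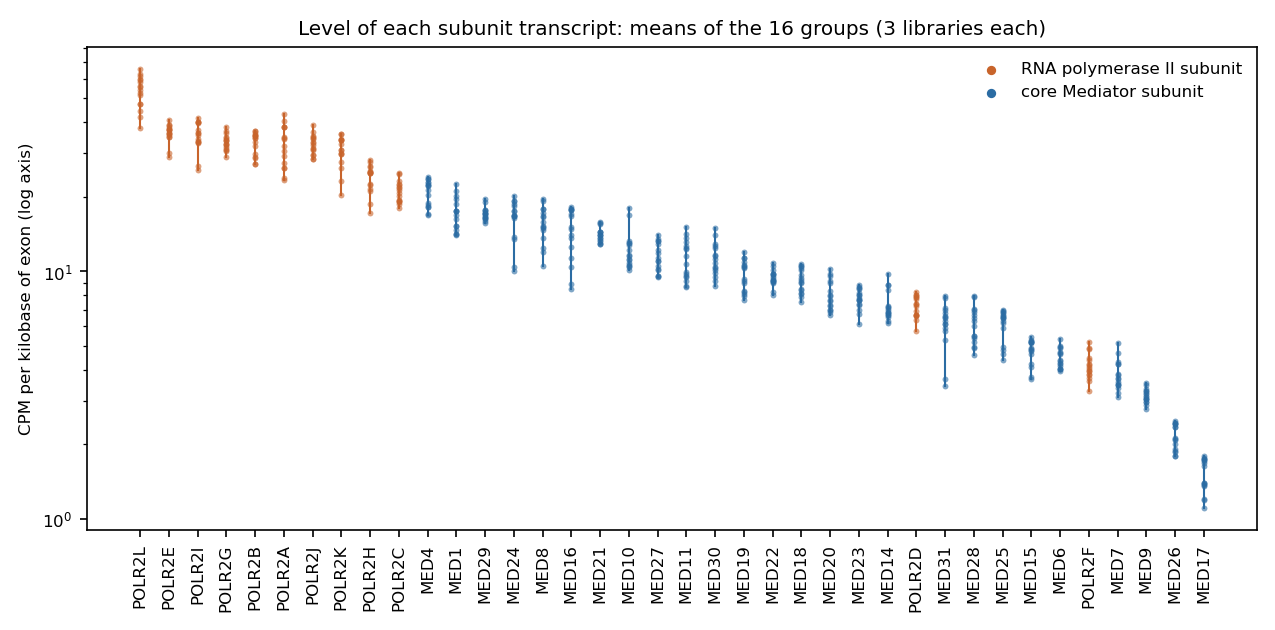
Level of each subunit transcript in CPM per kilobase of merged exon (log axis), with 1 point for the mean of each of the 16 groups (3 libraries each) and a line from the lowest to the highest group. POLR2L is at the top with 53.6 CPM per kilobase over all libraries and MED17 at the bottom with 1.52.

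Summed over the 26 subunits, core Mediator lay between 1020 and 1201 CPM in the 48 libraries. The sum was lowest in Rv1-WT and Rv1-Luc, at 1026 to 1080 CPM as group means, and higher in the 4 dKO derivatives, at 1127 to 1200 CPM. The RNA polymerase II sum ranged more widely, with group means from 931.3 CPM in Rv1-WT in CSS under vehicle to 1270 CPM in dKO-19 under SNX631. These sums weight long and abundant transcripts more than others.

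SNX631 changed no member by more than 1.5-fold. At the limits of the study (FDR under 0.01 and a fold change over 1.5, edgeR), 0 of 38 members were called in each of the 8 comparisons of SNX631 with vehicle, and DESeq2 also called 0. Over all genes tested the share called was 2.39% in Rv1-WT in FBS, 4.23% in Rv1-WT in CSS, 3.67% in Rv1-Luc in FBS, 4.06% in Rv1-Luc in CSS, 1.71% in dKO-8, 3.41% in dKO-19, 0.015% in dKO-8M and 0.09% in dKO-19M. At an unadjusted p under 0.05 the members numbered 7, 12, 8, 15, 11, 10, 2 and 4 in the same order. The median absolute log2 change of the members was 0.055 to 0.101 in the 6 settings with an active kinase. Over all genes it was 0.128 to 0.171 in those settings. The members also lay below all genes in dKO-8M (0.039 against 0.085) and dKO-19M (0.064 against 0.099). The gap was therefore not particular to settings with an active kinase. The members and all genes were not matched for count level (lowest member count 110, filter minimum count 10). The part of count level in the gap was not tested. The heat map of log2 changes sets the pale columns of the drug beside the darker ones of serum in Rv1-WT.

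**Figure D2:**
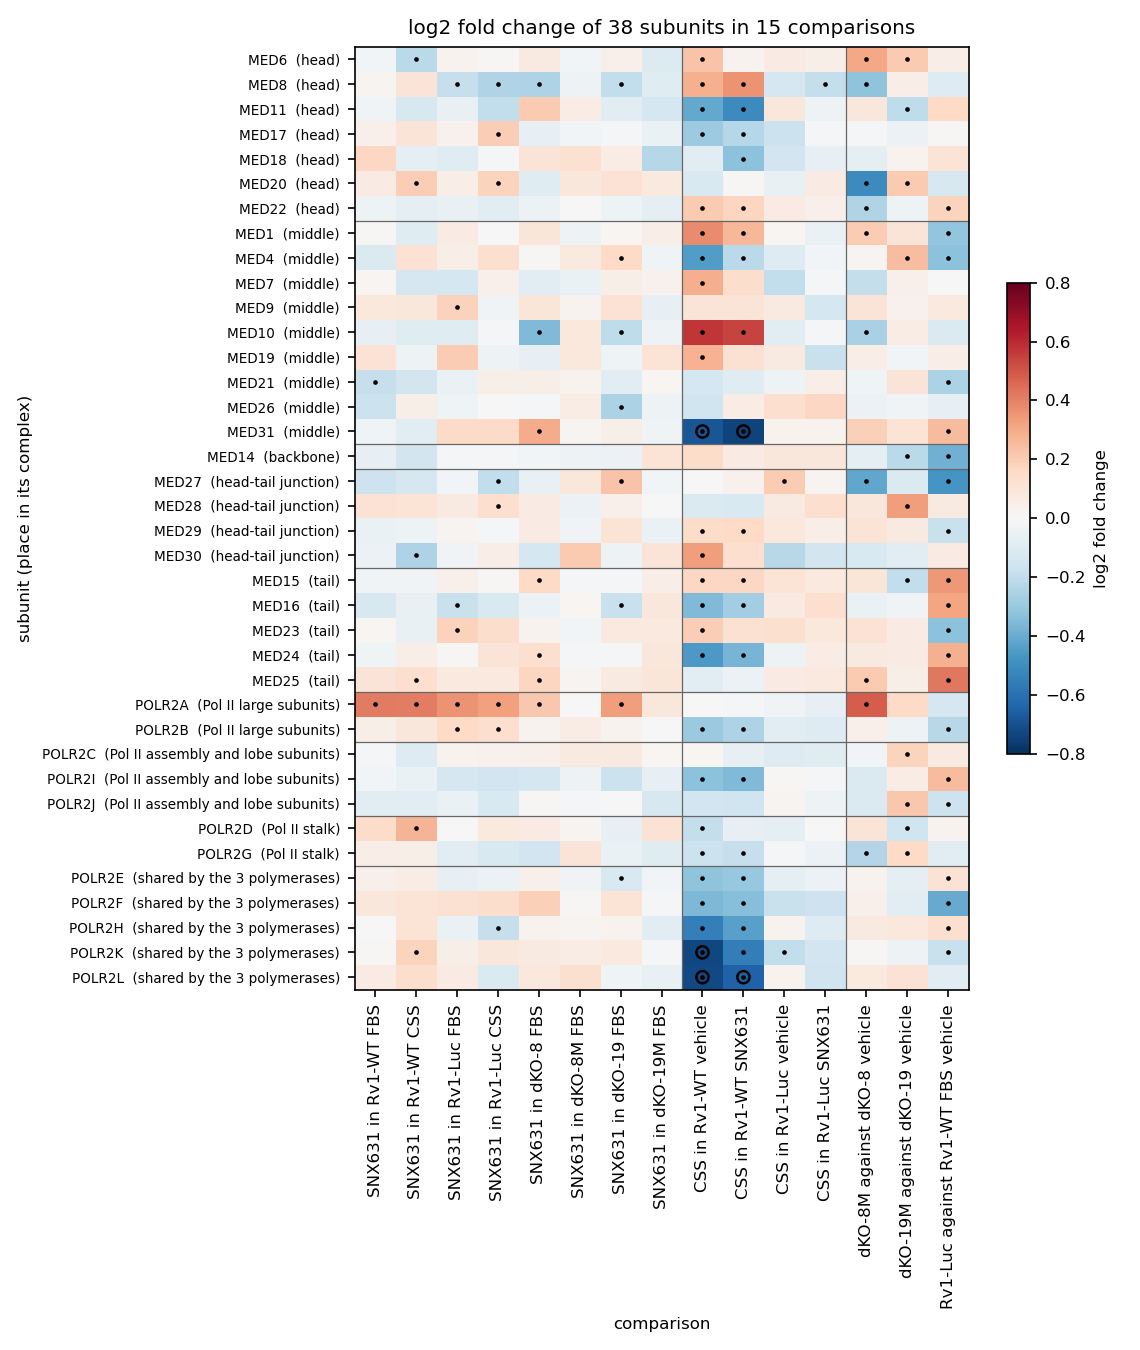
Log2 fold change of the 38 subunits (rows, by place in the complex) in the 15 comparisons (columns), with a dot where the FDR was under 0.05 and a ring where the limits of the study were met. The 5 rings are all in the CSS comparisons of Rv1-WT, and POLR2A is the 1 subunit with a dot in all 6 SNX631 comparisons with an active kinase.

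At an FDR under 0.05 with no fold limit, small differences could be resolved. In Rv1-WT in FBS 1 member was higher and 1 lower, where 14.5% of all genes passed. In CSS 5 were higher and 2 lower (26.5% of all genes). Rv1-Luc had 4 higher and 2 lower in FBS (20.3%), and 5 higher and 3 lower in CSS (23.9%). In dKO-8 there were 5 higher and 2 lower (13.5%), and in dKO-19 3 higher and 5 lower (20.6%). The 3 plasma cell genes summed to 8.54 to 20.5 CPM under vehicle and 1.23 to 8.11 CPM under SNX631 in Rv1-Luc in FBS, and to 1.51 to 3.29 and 3.12 to 15.2 CPM in CSS. Their part in the Rv1-Luc values, for the drug or for serum, was not tested. In the derivatives with a kinase-inactive protein 0 members passed, where 0.485% of all genes did so in dKO-8M and 2.41% in dKO-19M. Counted over settings, 1 member passed in all 6 settings with an active kinase, 1 passed in 4 of them in 1 direction, 22 passed in 1 to 3, and 14 passed in none. MED27 passed in both directions. These counts rest on the threshold in each setting, and differences between the settings were tested only where given below. The matching counts over settings were not made for all genes. The numbers of members that passed in several settings therefore do not set them apart from other genes.

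The member that passed in all 6 was POLR2A, which encodes the largest, catalytic subunit of RNA polymerase II and carries the C-terminal repeat that transcription kinases phosphorylate. In Rv1-WT in FBS its level was 229.5, 222.7 and 204.8 CPM under vehicle and 322.8, 275.5 and 277.0 CPM under SNX631. In CSS it was 219.8, 232.4 and 203.0 CPM under vehicle and 301.2, 285.9 and 282.8 CPM under SNX631. The vehicle and drug libraries did not overlap in either medium. The rise was 0.41 ± 0.0662 (log2, SE) in FBS with an FDR of 9.45e-06, and 0.41 ± 0.0657 in CSS with an FDR of 4.85e-06.

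Rv1-Luc gave POLR2A 186.5, 206.8 and 206.5 CPM under vehicle and 251.7, 257.6 and 260.2 CPM under SNX631 in FBS. In CSS the values were 187.8, 196.4 and 204.1 CPM against 238.6, 249.6 and 248.5 CPM. Again every drug library lay above every vehicle library. The log2 rise was 0.36 ± 0.065 (FDR 4.32e-05) in FBS and 0.33 ± 0.0653 (FDR 0.000169) in CSS. The effect of the drug did not pass a test of difference between media, with a difference of -0.00 ± 0.0932 in Rv1-WT (95% interval -0.194 to 0.185) and -0.03 ± 0.092 in Rv1-Luc (-0.222 to 0.153). The FDR of these differences was 0.993 and 0.956.

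The kinase derivatives set the active beside the inactive protein. In dKO-19, POLR2A was 291.1, 288.2 and 278.6 CPM under vehicle and 372.6, 351.0 and 357.5 CPM under SNX631, without overlap (log2 0.33 ± 0.0642, FDR 0.000107). In dKO-8 it was 223.2, 225.2 and 240.9 CPM against 265.3, 260.0 and 276.6 CPM (0.22 ± 0.0648, FDR 0.0187). The dKO-8 rise lost its FDR under 0.05 when vehicle replicate 1, vehicle replicate 2 or SNX631 replicate 3 was left out, with values between 0.19 and 0.25 over the 6 fits. In dKO-8M the libraries overlapped, at 313.9, 328.5 and 321.3 CPM under vehicle and 334.2, 314.8 and 310.4 CPM under SNX631 (-0.01 ± 0.064, FDR 0.997). In dKO-19M the vehicle libraries were 263.3, 346.7 and 348.6 CPM and the drug libraries 341.4, 341.0 and 337.1 CPM (0.09 ± 0.0639, FDR 0.559). The vehicle library at 263.3 is the one that stood apart, and without it the dKO-19M change was -0.03 (FDR 0.872).

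The difference between the active and the inactive protein was tested directly. For CDK8 the POLR2A effect of SNX631 in dKO-8 exceeded that in dKO-8M by 0.22 ± 0.0911 (FDR 0.156). For CDK19 the excess in dKO-19 over dKO-19M was 0.24 ± 0.0906 (FDR 0.0826), and without the library that stood apart it was 0.37 (FDR 5.27e-05). With all libraries neither difference passed. Under vehicle, dKO-8M had more POLR2A than dKO-8, by 0.48 ± 0.0647 (FDR 9.21e-08, no overlap). It was higher in dKO-19M than in dKO-19 by 0.16 ± 0.0641 (FDR 0.0501), or by 0.28 (FDR 6.74e-06) without that library. The vehicle libraries of dKO-8 and dKO-19 serve in both kinds of comparison, so these values are not independent. CDK8 counts under vehicle were higher in dKO-8M (123 ± 3.95 CPM) than in dKO-8 (68.7 ± 2.43 CPM). CDK19 counts were lower in dKO-19M (332 ± 29.6 CPM, with the library that stood apart) than in dKO-19 (510 ± 7.84 CPM). The part of kinase dose in the POLR2A differences was not tested.

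**Figure D3:**
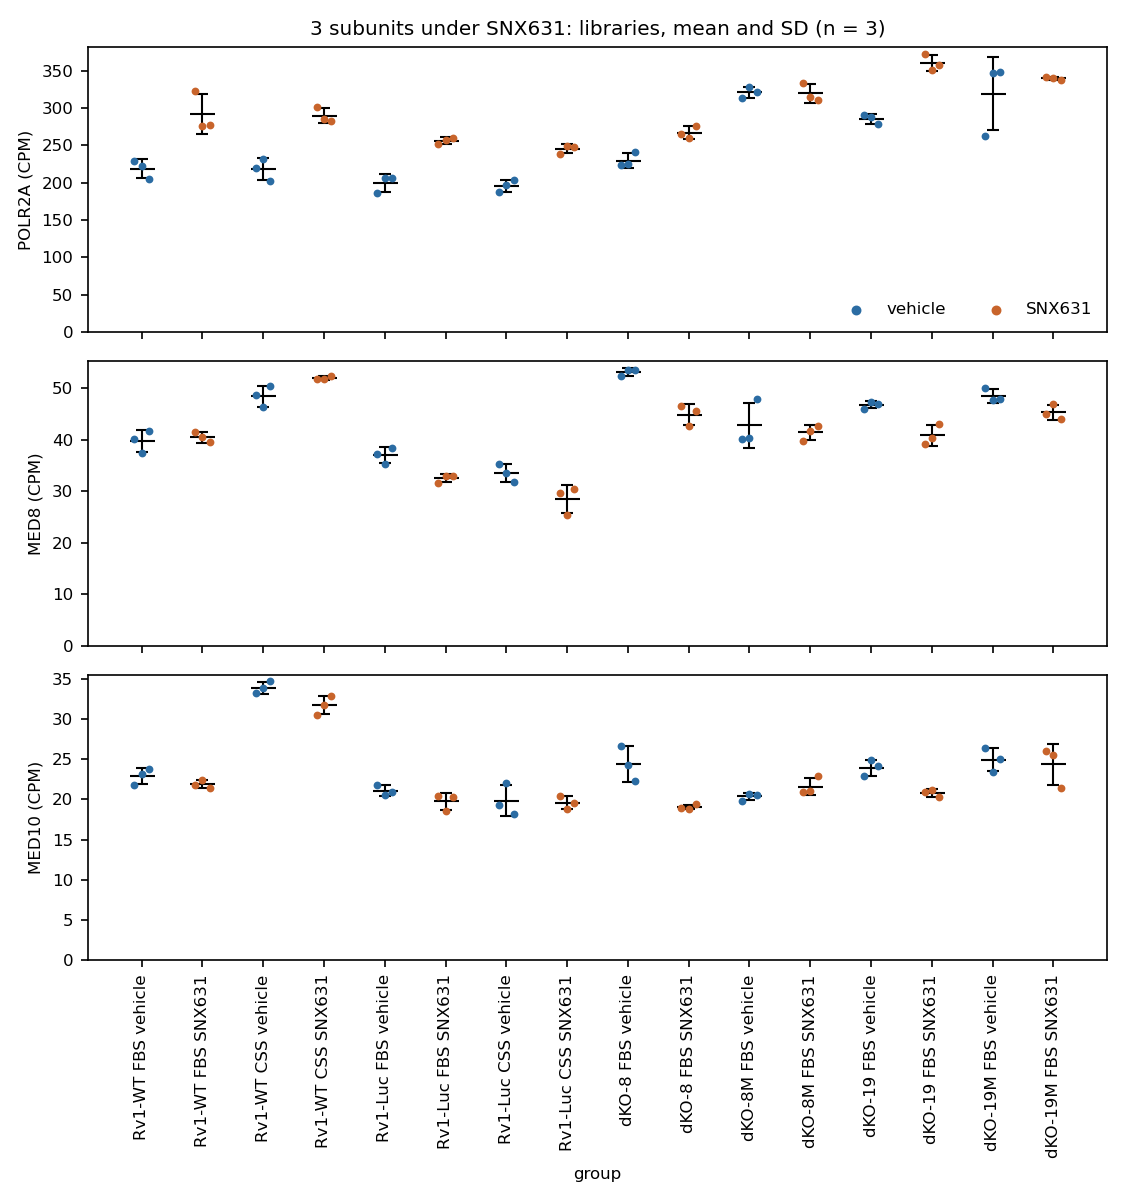
CPM of POLR2A, MED8 and MED10 in each library of the 16 groups (points), with the mean and SD of 3 libraries (bar and whiskers), vehicle in blue and SNX631 in orange. POLR2A under SNX631 lies above vehicle in the 6 settings with an active kinase, and 1 vehicle library of dKO-19M lies at 263.3 CPM, away from the other two.

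The other large subunit, POLR2B, rose in Rv1-Luc, by 0.16 ± 0.0394 in FBS (FDR 0.00209) and 0.13 ± 0.0398 in CSS (FDR 0.00903). In FBS its level was 161.5, 173.0 and 173.2 CPM under vehicle and 184.5, 187.9 and 193.5 CPM under the drug. In Rv1-WT its change was 0.04 in FBS (FDR 0.544) and 0.09 in CSS (FDR 0.104), and the difference between the lines was not tested. POLR2D, which forms the stalk of the polymerase with POLR2G, rose in Rv1-WT in CSS from 31.24, 28.38 and 30.57 CPM to 35.62, 37.32 and 35.97 CPM (0.27 ± 0.0554, FDR 0.000114). POLR2G did not pass in any comparison with the drug. Its effect in dKO-8 minus that in dKO-8M was -0.26 ± 0.0786 (FDR 0.0318), a call that was lost when any 1 of 8 of the 12 libraries involved was left out.

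In Mediator, MED8, a head subunit, was the transcript that passed an FDR under 0.05 in the largest number of active-kinase settings, lower in 4 of 6. It was lower under SNX631 in Rv1-Luc in FBS (37.15, 35.34 and 38.46 CPM under vehicle, 31.58, 33.05 and 32.98 CPM under drug). In CSS it was also lower (35.32, 33.56 and 31.79 CPM against 29.63, 25.46 and 30.39 CPM). In dKO-8 it went from 52.32, 53.55 and 53.59 CPM to 46.48, 42.58 and 45.60 CPM. In dKO-19 it went from 45.98, 47.32 and 46.88 CPM to 39.15, 40.28 and 43.06 CPM. None of these 4 pairs of groups overlapped. The log2 changes were -0.18 ± 0.0577, -0.24 ± 0.0602, -0.24 ± 0.0548 and -0.20 ± 0.0566, with an FDR of 0.0161, 0.00178, 0.000916 and 0.00837. Leaving out 1 library ended the call in Rv1-Luc in FBS (vehicle replicate 3 or SNX631 replicate 1), in Rv1-Luc in CSS (SNX631 replicate 2) and in dKO-19 (SNX631 replicate 1). Over these fits the 3 values ranged from -0.215 to -0.155, from -0.289 to -0.164 and from -0.234 to -0.167.

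MED8 did not pass in Rv1-WT, where its change was 0.02 in FBS (FDR 0.863) and 0.10 in CSS (FDR 0.204). In the inactive derivatives its change was -0.04 in dKO-8M and -0.10 in dKO-19M (FDR 0.406), or -0.075 (FDR 0.683) without the library that stood apart. The excess of the active over the inactive derivative was -0.20 ± 0.0786 for CDK8 (FDR 0.119) and -0.10 ± 0.0789 for CDK19 (FDR 0.53), neither of which passed. Without that library the CDK19 value was -0.12 (FDR 0.406). Under vehicle MED8 was lower in dKO-8M (40.12, 40.35 and 47.84 CPM) than in dKO-8, by -0.32 ± 0.0551 (FDR 3.81e-06). MED8 counts were fractional in 52.1% of libraries, as can arise when a read is divided between several places or genes.

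MED10, a conserved middle module subunit, was the member with the lowest p in dKO-8. Its level was 26.69, 24.27 and 22.28 CPM under vehicle and 18.94, 18.84 and 19.38 CPM under SNX631 (-0.35 ± 0.0682, FDR 0.000101). In dKO-8M it was 19.85, 20.68 and 20.58 CPM under vehicle and 20.97, 20.99 and 22.88 CPM under the drug (0.09 ± 0.0684, FDR 0.766). The difference between these effects passed, at -0.44 ± 0.0966 (FDR 0.00151), and lay between -0.506 and -0.37 whichever library was left out. In dKO-19 MED10 fell by 0.20 on the log2 scale (± 0.0687, FDR 0.0277), and the difference from dKO-19M was -0.16 ± 0.095 (FDR 0.328), or -0.20 (FDR 0.199) without the library that stood apart. Over all genes 0.905% met the study limits and 6.2% an FDR under 0.05 for the CDK8 pair, where 0 and 2 members did (9 at an unadjusted p under 0.05).

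MED16, a tail subunit, was the 1 member whose drug effect differed within the CDK19 pair at an FDR under 0.05, where 2.07% of all genes met the study limits and 9.87% the FDR alone. It fell in dKO-19 from 76.84, 66.27 and 73.64 CPM to 65.04, 63.02 and 63.25 CPM (-0.18 ± 0.0546, FDR 0.0114), and in dKO-19M it was 74.07, 69.22 and 69.23 CPM under vehicle against 82.41, 70.79 and 73.73 CPM (0.09 ± 0.0533, FDR 0.424). Without the library that stood apart the dKO-19M change was 0.13 (FDR 0.34). The difference was -0.27 ± 0.0763 (FDR 0.0117). It was -0.31 (FDR 0.00349) without the library that stood apart, and it lost the call without dKO-19 vehicle replicate 1 or dKO-19M SNX631 replicate 1, over a range of -0.331 to -0.21. MED21, a middle subunit, was the second member that passed in Rv1-WT in FBS, from 49.21, 54.36 and 50.35 CPM to 47.12, 44.41 and 43.63 CPM (-0.19 ± 0.064, FDR 0.0387), and that call ended in 4 of the 6 fits that left out 1 library (without vehicle replicate 2 or 3, or SNX631 replicate 2 or 3).

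Between media, the drug effect on members did not differ at an FDR under 0.05: 0 members passed in Rv1-WT (0.295% of all genes at the study limits, 3.13% at the FDR alone) and 0 in Rv1-Luc (0.08% and 0.51%). At an unadjusted p under 0.05 there were 1 and 3 members, and DESeq2 found 0 in both. Among the intervals of these differences, that of POLR2A is given above.

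In Rv1-WT more members passed for serum than for the drug. In CSS under vehicle, 3 members were called lower at the study limits and 0 higher (10.9% of all genes called). At an FDR under 0.05, 11 members were higher and 15 lower, where 44.9% of all genes passed (21.8% higher, 23.1% lower). Under SNX631, 2 members were called lower (7.83% of all genes), and 6 were higher and 15 lower at an FDR under 0.05 (40.6% of all genes, 19.5% higher and 21.1% lower). The 2 lists shared 20 members, 14 lower and 6 higher in both, which is 20 of 26 under vehicle and 20 of 21 under drug. The vehicle and drug comparisons share no library with each other, but each shares its libraries with the SNX631 comparisons above. The median log2 change of the members was -0.12 under vehicle and -0.07 under SNX631, against 0.007 and 0.008 for all genes.

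RNA polymerase II carried most of the lower values. Of its 12 subunits, 9 were lower in CSS under vehicle and 8 under SNX631, and 0 were higher in either. All 5 subunits that are shared with RNA polymerases I and III were lower in both, with a log2 change of -0.73 to -0.32 under vehicle and -0.64 to -0.30 under SNX631. POLR2A was not among those that passed, at -0.01 ± 0.0666 under vehicle (FDR 0.964). The summed level of the 12 subunits was 1113 ± 5.91 CPM in FBS and 931.3 ± 5.13 CPM in CSS under vehicle (SD, n = 3).

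POLR2L, a small subunit that helps the assembly of all 3 polymerases, was 75.56, 72.30 and 67.28 CPM in FBS and 41.86, 42.27 and 46.53 CPM in CSS under vehicle. Under SNX631 it was 77.89, 75.47 and 72.11 CPM in FBS and 48.23, 48.36 and 47.60 CPM in CSS. The media did not overlap under either treatment. The log2 change was -0.72 ± 0.0681 (0.608-fold, FDR 2.2e-13) under vehicle and -0.64 ± 0.0669 (0.64-fold, FDR 6.88e-12) under SNX631.

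POLR2K, a zinc-binding shared subunit, was 51.92, 60.59 and 61.25 CPM in FBS and 34.46, 35.08 and 35.24 CPM in CSS under vehicle. Under SNX631 it was 56.53, 60.64 and 57.60 CPM in FBS and 34.41, 39.99 and 44.23 CPM in CSS. Its log2 change was -0.73 ± 0.0623 (FDR 4.32e-15) under vehicle, and -0.56 ± 0.061 (0.681-fold, FDR 3.13e-11) under SNX631, where it stopped short of the fold limit. POLR2H, another shared subunit, fell by 0.54 on the log2 scale (± 0.0582, FDR 9.16e-12) under vehicle, from 79.02, 79.60 and 79.54 CPM to 52.36, 54.04 and 56.90 CPM. POLR2B fell less, by 0.29 (± 0.0406, FDR 1.31e-08), from 197.1 to 160.8 CPM as means.

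Core Mediator was mixed: 11 of 26 subunits were higher and 6 lower in CSS under vehicle, and 6 higher and 7 lower under SNX631. MED31, a small middle subunit, was 11.050, 12.920 and 13.240 CPM in FBS and 7.671, 8.304 and 7.151 CPM in CSS under vehicle. Under SNX631 it was 11.160, 11.800 and 13.210 CPM in FBS and 6.361, 8.371 and 6.955 CPM in CSS. Its log2 change was -0.69 ± 0.119 (0.621-fold, FDR 2.31e-06) and -0.74 ± 0.12 (0.599-fold, FDR 7.61e-07), and it was the lowest of the 26 in both. MED24, a tail subunit, fell by 0.46 (± 0.0467, FDR 1.43e-12), and MED4, of the middle module, by 0.44 (± 0.054, FDR 4.34e-10) under vehicle.

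In the other direction, MED10 went from 21.76, 23.16 and 23.75 CPM in FBS to 33.24, 33.90 and 34.72 CPM in CSS under vehicle (0.57 ± 0.0692, 1.49-fold, FDR 4.06e-10). Under SNX631 it went from 21.84, 22.43 and 21.46 CPM to 30.59, 31.83 and 32.88 CPM (0.54 ± 0.0698, FDR 3.71e-09). These rises lay just under the 1.5-fold limit, without overlap. MED1, the nuclear receptor contact, rose from 129.2, 129.8 and 124.9 CPM to 168.3, 163.2 and 166.4 CPM under vehicle (0.38 ± 0.0523, FDR 1.68e-08). MED8 rose by 0.29 ± 0.0595 under vehicle (FDR 5.85e-05) and 0.36 ± 0.0587 under SNX631 (FDR 7.91e-07), from 40.10, 37.42 and 41.78 CPM to 48.64, 46.29 and 50.37 CPM under vehicle.

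**Figure D4:**
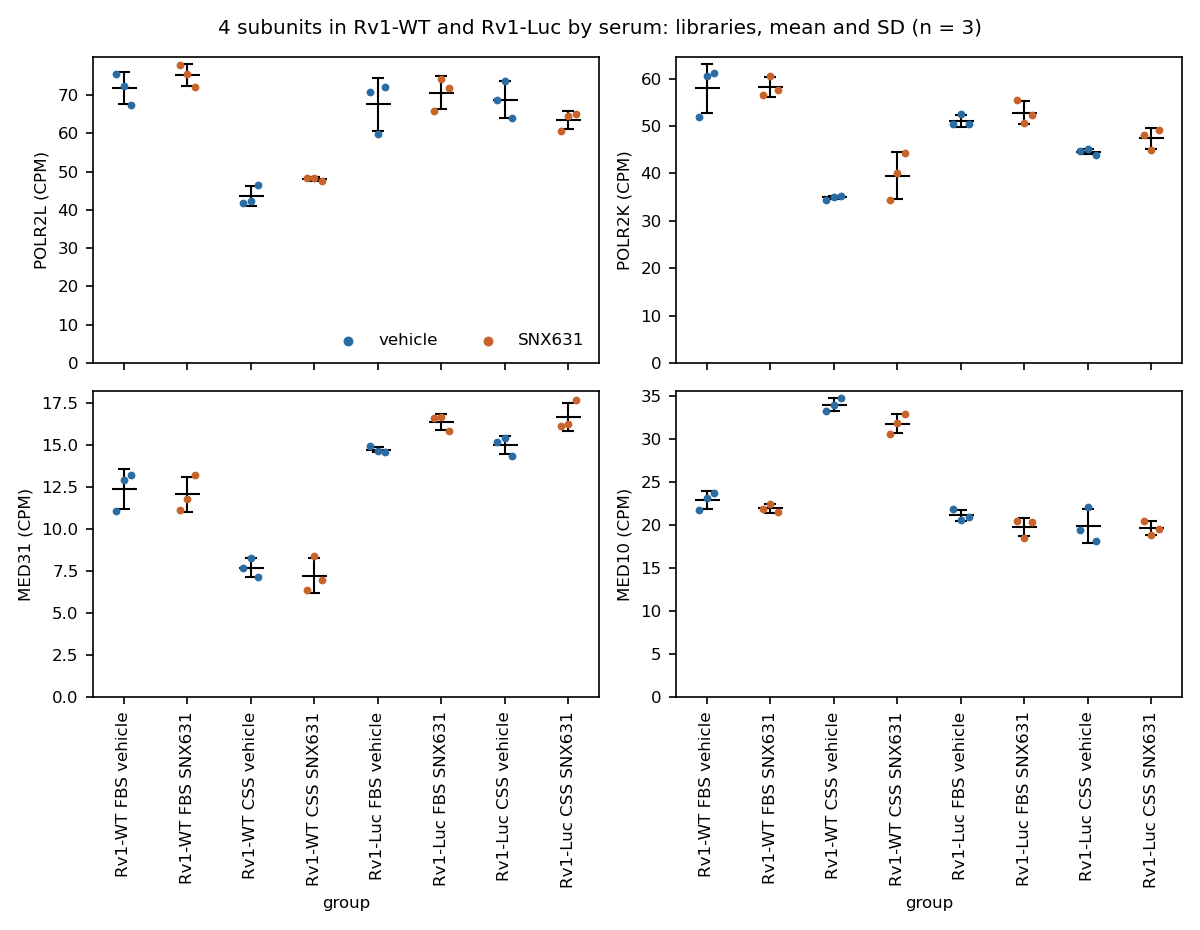
CPM of POLR2L, POLR2K, MED31 and MED10 in each library of Rv1-WT and Rv1-Luc by serum and treatment (points), with the mean and SD of 3 libraries, vehicle in blue and SNX631 in orange. In Rv1-WT the CSS libraries lie apart from FBS for all 4 transcripts, lower for POLR2L, POLR2K and MED31 and higher for MED10.

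In Rv1-Luc few members passed for serum. No member was called at the study limits under vehicle (1.49% of all genes) or SNX631 (1.51%), and DESeq2 called 0 as well, with 11 and 9 members at an unadjusted p under 0.05. At an FDR under 0.05, 1 member was higher and 1 lower under vehicle (14% of all genes), and 1 was lower under SNX631 (12.7%). POLR2K was 50.34, 52.48 and 50.36 CPM in FBS and 44.72, 45.06 and 43.99 CPM in CSS under vehicle (-0.20 ± 0.0573, FDR 0.0138). MED27, which lies at the junction of head and tail, was 20.35, 20.71 and 19.48 CPM in FBS and 23.68, 22.42 and 23.52 CPM in CSS (0.20 ± 0.0659, FDR 0.0291). Under SNX631 MED8 was lower in CSS by -0.19 ± 0.0601 (FDR 0.0235). Leaving out 1 library ended the POLR2K call for FBS replicate 2 or CSS replicate 3, the MED27 call for replicate 1 or 3 of either medium, and the MED8 call for FBS replicate 2 or 3 or CSS replicate 2.

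The difference between the lines was tested for vehicle-treated cells, which share no library. It met the study limits for 3 members, where 8.65% of all genes did so: MED31 (0.71 ± 0.152, FDR 0.000138) and POLR2L (0.75 ± 0.0921, FDR 2.14e-09) changed more upward in Rv1-Luc than in Rv1-WT, and MED10 more downward (-0.66 ± 0.0973, FDR 1.52e-07). At an FDR under 0.05, 12 differences were positive and 5 negative (34.1% of all genes). In Rv1-Luc POLR2L was 70.73, 59.69 and 72.11 CPM in FBS and 68.75, 73.61 and 63.91 CPM in CSS, with overlap. MED31 was 14.930, 14.670 and 14.620 CPM in FBS and 15.200, 15.430 and 14.370 CPM in CSS. MED10 was 21.85, 20.50 and 20.89 CPM in FBS and 19.35, 22.01 and 18.16 CPM in CSS. POLR2H, second by p, differed by 0.57 ± 0.0786 (FDR 2.87e-08), with a change of 0.03 in Rv1-Luc. When single libraries were left out the number of members at the study limits ran from 3 to 5, with 5 without Rv1-WT CSS vehicle replicate 3 or Rv1-Luc FBS vehicle replicate 1. The 3 plasma cell genes differed between the media in Rv1-Luc by the sums given above, and their part in the difference between the lines was not tested.

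**Figure D5:**
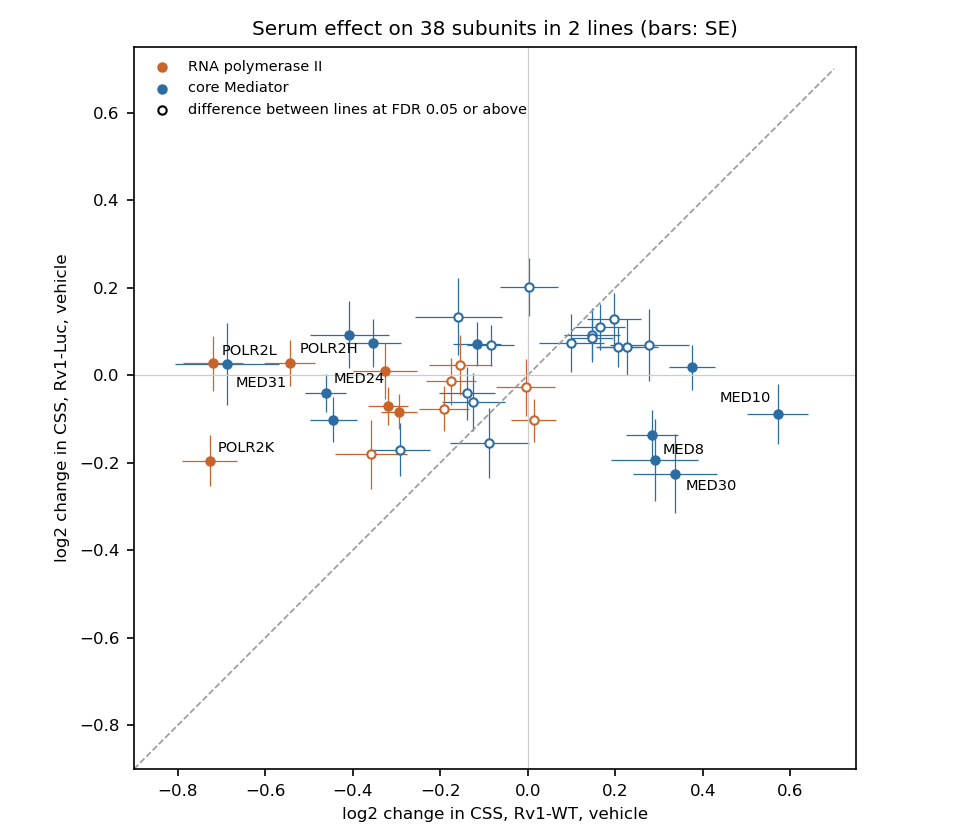
Log2 change in CSS of the 38 subunits under vehicle in Rv1-WT (horizontal) and Rv1-Luc (vertical), with SE bars and the line of equal change dashed. Points spread from -0.73 to 0.57 in Rv1-WT and from -0.225 to 0.202 in Rv1-Luc, and open points are differences between the lines that did not reach an FDR under 0.05.

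Some members share exonic bases with a gene on the opposite strand. The libraries were made with a kit that keeps strand, but the strand setting used in counting is not given in the sources used here, so such reads cannot be told apart. MED31 shares 58.3% of its merged exon bases with TXNDC17, and POLR2L 22.5% with CD151. In CSS in Rv1-WT under vehicle TXNDC17 was lower by -0.46 ± 0.0788 (FDR 2.22e-06) and CD151 by -0.22 ± 0.0511 (FDR 0.000266). Their part in the MED31 and POLR2L values was not tested. The annotation shows no such overlap for MED10, POLR2K, POLR2H or POLR2A. POLR2I shares 94.9% with opposite-strand genes, TBCB among them, and is uncertain for that reason. POLR2J, which has near copies in the genome, and MED26 were fractional in 93.8% of libraries each and are uncertain as well. MED25 counts were fractional in 60.4% of libraries and POLR2D counts in 52.1%.

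Promoter sequence is printed for 5 of the members with serum or drug effects, to show what the regions that precede these genes hold. Of the 38 members 27 had an entry in the RefSeq promoter table (GRCh38.p14). The 150 bases before each start are printed 5′ to 3′ on the strand of the gene, with matches to 7 short motifs in capitals on either strand. The motifs were CCGGAA (the ETS core), GGGCGG (the GC box), CCAAT (the CCAAT box) and TATAAA (the TATA box). The others were ATGGCG (the YY1 core), CACGTG (the E-box) and GCATGCGC (an NRF1 half-site). The first sequence belongs to POLR2A, higher under SNX631, and the next 4 to members that moved with serum in Rv1-WT.
POLR2A (chr17:7484216-7484365, + strand): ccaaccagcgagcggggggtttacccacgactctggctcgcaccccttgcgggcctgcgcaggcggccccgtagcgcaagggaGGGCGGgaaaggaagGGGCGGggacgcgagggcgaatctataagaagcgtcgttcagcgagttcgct
POLR2L (chr11:842530-842679, - strand): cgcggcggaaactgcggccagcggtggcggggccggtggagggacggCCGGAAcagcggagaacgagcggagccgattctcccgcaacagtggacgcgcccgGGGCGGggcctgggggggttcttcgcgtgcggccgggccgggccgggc
POLR2H (chr3:184361560-184361709, + strand): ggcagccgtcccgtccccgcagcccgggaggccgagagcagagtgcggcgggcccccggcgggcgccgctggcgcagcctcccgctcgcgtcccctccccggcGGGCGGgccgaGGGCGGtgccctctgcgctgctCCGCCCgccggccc
MED31 (chr17:6651606-6651755, - strand): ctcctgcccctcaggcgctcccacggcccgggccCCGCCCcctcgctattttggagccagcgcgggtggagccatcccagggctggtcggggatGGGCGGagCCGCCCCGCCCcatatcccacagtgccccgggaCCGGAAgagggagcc
MED10 (chr5:6378548-6378697, - strand): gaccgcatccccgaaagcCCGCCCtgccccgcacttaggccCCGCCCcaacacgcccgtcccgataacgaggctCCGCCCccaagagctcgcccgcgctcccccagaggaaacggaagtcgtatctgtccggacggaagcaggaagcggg
The 5 sequences are rich in G and C, each holds at least 1 GC box, and an ETS core occurs in POLR2L and MED31. Over the 27 members the GC box was in 17 (63%) and the ETS core in 9 (33.3%), beside 36.8% and 11.1% of all 35116 promoters of the same length. CCAAT was in 18.5% of members and 23.5% of all, and ATGGCG in 7.41% and 4.03%. GCATGCGC was in 7.41% and 2.17%, while the TATA box and the E-box were in 0 members, beside 6.71% and 4.57% of all. Each share counts promoters with at least 1 match, and motif matches may overlap. Members had 1 promoter each, while the 35116 were all entries, not limited to 1 per gene, so the shares are not matched. A GC box was in the promoters of members that rose (MED10) and of members that fell (POLR2L, POLR2H, MED31). MED24 and MED4, which fell in CSS in Rv1-WT, and MED1, which rose, held no GC box and are not printed. The GC box shared by the printed sequences thus depends on which were printed.

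The re-expressed kinases were also compared under vehicle. Between dKO-8M and dKO-8, 0 members met the study limits (7.03% of all genes), with 4 higher and 6 lower at an FDR under 0.05 (30.5%). At an unadjusted p under 0.05 there were 11, and DESeq2 called 0 and 10. MED20, a head subunit, had the lowest p, at 34.17, 30.23 and 32.09 CPM in dKO-8 and 23.41, 23.26 and 20.69 CPM in dKO-8M (-0.51 ± 0.0643, 0.701-fold, FDR 2.39e-09). POLR2A was second, as above, and MED27 followed (-0.42 ± 0.0639, FDR 3.82e-07). MED20 counts were fractional in 70.8% of libraries.

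Between dKO-19M and dKO-19, 0 members met the study limits (7.6% of all genes), with 7 higher and 4 lower at an FDR under 0.05 (33.3%). There were 12 at an unadjusted p under 0.05, and DESeq2 called 0 and 11. MED28, at the junction of head and tail, was 67.04, 72.13 and 67.84 CPM in dKO-19 and 90.03, 86.83 and 84.15 CPM in dKO-19M (0.34 ± 0.0483, FDR 7.88e-08). MED4 was 46.92, 48.14 and 48.63 CPM against 60.78, 54.50 and 55.51 CPM (0.25 ± 0.0495, FDR 4.74e-05). Without the library that stood apart the members numbered 5 higher and 6 lower, of which 6 were among the 11, and MED28 (0.31) and MED4 (0.20) were among those 6. MED1 (0.20, FDR 0.000201) and POLR2A passed only without it. The derivatives are separate transduced lines, so the mutation and the history of each line cannot be told apart.

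The lines themselves differed in many members. In vehicle-treated FBS cultures, Rv1-Luc against Rv1-WT gave 0 members at the study limits (17.8% of all genes), with 9 higher and 11 lower at an FDR under 0.05 (52.5% of all genes, 24.1% higher and 28.4% lower). At an unadjusted p under 0.05 there were 20, and DESeq2 found 0 and 19. MED25, the tail subunit that many activators bind, was 34.98, 36.15 and 35.81 CPM in Rv1-WT and 50.50, 44.94 and 47.72 CPM in Rv1-Luc (0.42 ± 0.0504, FDR 2.41e-10). MED27 was 29.11, 28.92 and 26.15 CPM against 20.35, 20.71 and 19.48 CPM (-0.48 ± 0.0678, FDR 2.83e-08). All 5 tail subunits passed, 4 of them higher in Rv1-Luc (MED15, MED16, MED24, MED25) and MED23 lower. In the same comparison 1 of 7 head, 4 of 9 middle and 2 of 4 head-tail junction subunits passed. The backbone MED14 passed as well, as did 7 of 12 RNA polymerase II subunits. Whether the modules differ was not tested. Neither MED25 nor MED27 overlapped between the lines. Of the 12 markers of other cell types, 6 were tested and 4 of them were called higher in Rv1-Luc. The summed level of the 12 was 15.8 to 27.5 CPM in Rv1-Luc and 5.9 to 7.7 CPM in Rv1-WT, where IGKC, IGHG1 and JCHAIN were at 0. The part of these transcripts in the differences between the lines was not tested.

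The genes that work beside these complexes were counted from lists of the wider pathway. Of 7 kinase module genes, CDK19 was the one with the lowest p under SNX631 in 5 of the 6 settings with an active kinase. Its rise was 0.38 ± 0.0438 in Rv1-WT in FBS (FDR 6.68e-10) and 0.80 ± 0.0429 in Rv1-Luc in FBS (FDR 7.72e-23). In dKO-19 its mean was lower under the drug, at 510 ± 7.84 CPM under vehicle and 478 ± 15 CPM under SNX631 (SD, n = 3). In dKO-8, where the CDK19 gene is knocked out, the values were 103 ± 2.05 and 128 ± 5.87 CPM. In CSS in Rv1-WT under vehicle, 4 of the 7 were higher and 2 lower, beside 21.8% and 23.1% of all genes. MED12, the activator of the kinase, was at 0.66 ± 0.0745 (FDR 2.96e-10).

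Of 31 general initiation factors, 3 were higher and 0 lower under SNX631 in Rv1-WT in FBS (14.5% of all genes passed), 5 and 3 in CSS (26.5%), 7 and 0 in Rv1-Luc in FBS (20.3%) and 8 and 0 in CSS (23.9%). There were 5 higher and 2 lower in dKO-8 (13.5%) and 7 and 0 in dKO-19 (20.6%). The counts were 0 and 0 in dKO-8M (0.485%), and 1 and 0 in dKO-19M (2.41%). GTF2H2, a subunit of TFIIH, met the study limits in 5 of the 6 settings with an active kinase, with 0.64 ± 0.111 in Rv1-WT in FBS (FDR 1.65e-05) and 0.90 ± 0.0938 in dKO-19 (FDR 1.7e-11), and it has near-identical copies that make it uncertain. In CSS in Rv1-WT under vehicle 10 factors were higher and 6 lower, beside 21.8% and 23.1% of all genes.

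Of 27 elongation and pausing factors, 2 were higher and 2 lower in Rv1-WT in FBS under SNX631 and 3 and 8 in CSS. In Rv1-Luc there were 4 higher and 1 lower in FBS and 3 and 4 in CSS. In dKO-8 there were 6 and 0, in dKO-19 4 and 1, in dKO-8M 0 and 0, and in dKO-19M 2 and 0, beside the same shares of all genes. ELL2, an elongation factor of the super elongation complex, met the study limits in all 6 settings with an active kinase, from 0.60 ± 0.0633 in dKO-8 (FDR 1.21e-09) to 1.04 ± 0.0638 in Rv1-Luc in FBS (FDR 1.12e-16). In dKO-19M it also rose, by 0.28 ± 0.0626 (FDR 0.00713). This ELL2 value and the dKO-19M counts of the wider lists use the vehicle library that stood apart. They are given only with that library, and its part in them was not tested. In CSS under vehicle ELL2 was -0.98 ± 0.0659 in Rv1-Luc (FDR 6.06e-15) and -0.12 ± 0.0658 in Rv1-WT (FDR 0.133). In CSS in Rv1-WT under vehicle 13 factors were higher and 3 lower, beside 21.8% and 23.1% of all genes. TCEA1 was at 0.60 ± 0.0366 (FDR 4.84e-21) and NELFCD at -0.52 ± 0.0385 (FDR 2.08e-17).

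Of 19 subunits that belong to RNA polymerase I or III, 4 were higher and 6 lower in CSS in Rv1-WT under vehicle. Of all genes, 21.8% were higher and 23.1% lower at an FDR under 0.05. POLR3C, of polymerase III, was the most changed, at 0.98 ± 0.0527 (FDR 3.54e-23), and POLR3K was lower at -0.55 ± 0.0677 (FDR 6.21e-10). Under SNX631 these 19 gave 3 higher and 1 lower in Rv1-WT in FBS and 9 higher and 0 lower in CSS. Rv1-Luc gave 4 higher and 1 lower with FBS and 2 of each with CSS. The counts were 1 and 2 in dKO-8, 0 and 2 in dKO-19, and 0 and 0 in both inactive derivatives. The shares of all genes in these SNX631 settings are those given for the initiation factors.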

How the data were processed

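RNA of 48 samples of 22Rv1 and its derivatives was sequenced with a kit that keeps strand. Per the labels, reads were processed by the authors with FastQC, cutadapt 2.8, STAR 2.7.2b and featureCounts (Subread 2.0.3) against GRCh38.p13, and GRCm39 is also named in the submitters' processing notes. The strand setting and annotation release of the counting are not given in the sources used here. The authors deposited estimated counts per gene, with 81.6% of nonzero values whole, which were rounded here. Totals ran from 13.2 M to 31.5 M counts, and precision rests on this depth and on 3 libraries per group.

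The 61815 genes (2 transgene entries left out) were filtered with filterByExpr (minimum count 10, minimum total 15), which kept 20009. One quasi-likelihood fit with edgeR 4.0.16 (R 4.3.3, limma 3.58.1) of all 48 libraries, with TMM factors, 32 residual degrees of freedom and robust estimation, gave 15 differences and 5 differences of differences. All p-values were two-sided and adjusted over all genes tested (FDR, Benjamini-Hochberg). Calls used an FDR under 0.01 with a fold over 1.5, as the study did, or an FDR under 0.05. Intervals are at 95%. Alternatives were DESeq2 1.42.0 (size factors, and its own test), library size only, no filter, only the libraries of a comparison, a replicate block and leaving out each library. Levels per kilobase used GENCODE 29 exons, and promoters came from RefSeq.

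Named members were those at the study limits, those at an FDR under 0.05 in 4 or more of the 6 SNX631 comparisons with an active kinase, and the 2 with the lowest p in each comparison among those that passed. Other members of the complexes are named where a group of them is described. The members and gene lists were chosen with earlier results of these data known. The opposite-strand neighbours were listed after the data were seen. One marker gene is not reported here.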

Additional observations from a re-analysis of the deposited data

Results flagged for a closer look

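Differences between effects that passed an FDR under 0.05 (edgeR) were looked at again. Within the CDK8 pair, the SNX631 effect in dKO-8 minus that in dKO-8M was -0.439 for MED10 and -0.260 for POLR2G. Within the CDK19 pair it was -0.274 for MED16. All 3 are log2 differences.

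The other 17 differences are between the CSS effects of Rv1-Luc and Rv1-WT under vehicle. Mediator members with a lower value in Rv1-Luc were MED10 (-0.659), MED30 (-0.561), MED7 (-0.484), MED8 (-0.422) and MED1 (-0.357). Mediator members with a higher value were MED31 (0.712), MED11 (0.501), MED16 (0.426), MED24 (0.421), MED4 (0.341) and MED28 (0.187). Polymerase members all had a higher value: POLR2L (0.746), POLR2H (0.572), POLR2K (0.532), POLR2I (0.335), POLR2E (0.249) and POLR2B (0.211). Over all genes 34.1% passed this test. The Rv1-WT libraries were also the shallowest (13.2 M to 18.2 M counts, against 19.5 M to 27.3 M in Rv1-Luc), and IGKC, IGHG1 and JCHAIN summed to 8.54 to 20.5 CPM in FBS and 1.51 to 3.29 CPM in CSS in Rv1-Luc, against at most 0.062 CPM in Rv1-WT. The part of depth or of these transcripts in the differences was not tested.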

How the results depend on the processing

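Of the 40 member effects that the text rests on, 30 kept their direction and their side of the threshold in every alternative run and 0 reversed. The other 10 lost the threshold in at least 1 fit that left out a library, 2 of them also with library size only, 1 without the low-count filter and 4 with only the libraries of the comparison. Numbers of members at an FDR under 0.05 moved by over 1.5 times as follows, and the cause was not tested. With library size only they were 1 for SNX631 in Rv1-WT in FBS, 5 in dKO-19, 2 for CSS in Rv1-Luc under SNX631 and 6 for the CDK19 difference. Without the filter (40418 genes tested) they were 4 for SNX631 in Rv1-WT in CSS, 4 in Rv1-Luc in CSS, 5 in dKO-19, 1 and 3 for CSS in Rv1-Luc under vehicle and SNX631, and 2 for the CDK19 difference. DESeq2 gave 2 for CSS in Rv1-Luc under SNX631 and 2 for the CDK19 difference. With only the libraries of the comparison they were 2 for SNX631 in Rv1-Luc in FBS, 12 in dKO-8, 2 in dKO-8M, 1 and 0 for CSS in Rv1-Luc under vehicle and SNX631, 3 for dKO-19M against dKO-19, 7 for the CDK8 difference and 0 for the CDK19 difference.

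Leaving out single libraries gave ranges of 1 to 3 (SNX631 in Rv1-WT in FBS), 3 to 5 (CSS), 3 to 6 (Rv1-Luc in FBS), 4 to 8 (CSS), 3 to 6 (dKO-8), 4 to 8 (dKO-19) and 0 to 1 (dKO-19M). They were 0 to 5 and 0 to 2 for CSS in Rv1-Luc under vehicle and SNX631, 1 to 3 for the CDK8 difference, 0 to 4 for the CDK19 difference and 0 to 1 for the difference between media in Rv1-WT. At the study limits the difference between lines in CSS gave 3 to 5, with 5 without Rv1-WT CSS vehicle replicate 3 or Rv1-Luc FBS vehicle replicate 1.

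Libraries whose omission moved a number by over 1.5 times were, for SNX631, Rv1-WT FBS vehicle 2 and 3 and SNX631 2 and 3 (1 each), Rv1-WT CSS vehicle 1 and SNX631 2 (3) and vehicle 2 (4), Rv1-Luc FBS vehicle 3 and SNX631 1 (3), and Rv1-Luc CSS vehicle 2 and SNX631 1 and 2 (4). They were also dKO-8 vehicle 2 (3), vehicle 1 and SNX631 2 and 3 (4), dKO-19 vehicle 1 and SNX631 1 and 2 (5) and SNX631 3 (4), and dKO-19M vehicle 2 and 3 and SNX631 1 (1). For CSS in Rv1-Luc under vehicle they were FBS 2 (5), FBS 1 and 3 and CSS 1 (1) and CSS 3 (0), and under SNX631 FBS 1 (2), FBS 3 and CSS 2 (0). For the CDK19 difference they were dKO-19M vehicle 2 (4), vehicle 3 (3), vehicle 1 and SNX631 1 and dKO-19 SNX631 1 (2) and dKO-19 vehicle 1 (0). For the CDK8 difference 8 of the 12 libraries gave 1, the same that ended the POLR2G call, and for the difference between media in Rv1-WT CSS vehicle 3 gave 1.

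The labels do not say whether replicate numbers pair the libraries. No comparison had every correlation of same-numbered deviations over 0.1, a limit that cannot exclude pairing. For SNX631 in dKO-19M the 3 correlations were 0.201, 0.093 and 0.039. With a replicate block the numbers were 2 for SNX631 in Rv1-WT in FBS, 6 in CSS, 9 in dKO-19 and 27 for CSS in Rv1-WT under vehicle, and no named effect lost its threshold. Another scaling moved the median of all genes by at most 0.012 (DESeq2 size factors) or, in size, -0.065 (library size only).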
